A study of Mus musculus with 8 samples.

Results

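The replication-dependent histone genes were examined in an ATAC-seq data set of hippocampal microglia. They were taken as the protein-coding genes of the mm10 annotation whose older symbols begin with Hist1h, Hist2h, Hist3h or Hist4h, which gave 67 of 21887 protein-coding genes. By histone type these are 6 H1, 18 H2A, 18 H2B, 12 H3 and 13 H4 genes. The Hist1h cluster on chromosome 13 holds 54 of them, in a first block of 23 genes over 328 kb (chr13:21715711-22043658) and a second block of 31 genes over 404 kb (chr13:23531044-23934913), with 1.49 Mb between the blocks. The Hist2h cluster holds 10 genes (chr3:96219885-96270192), the Hist3h cluster 2 (chr11:58948911-58955192), and the Hist4h gene stands alone (chr6:136803993-136804431).

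ATAC-seq uses a transposase to cut accessible DNA and insert sequencing adapters there, so that open chromatin gives local excesses of reads, called peaks. The 8 libraries came from mice aged 3 weeks that all carried Tmem119-tdTomato+/-, a heterozygous allele that puts a red fluorescent protein under the control of a microglial gene. Of these, 4 were labelled control (Ctrl) and 4 FGR, for growth restriction in the womb. The question was whether that restriction is reflected in the accessible chromatin of these cells. The libraries form 2 deposit sets, with replicates 1 and 2 of both groups in set 1 and replicates 3 and 4 in set 2. The labels give neither the number or sex of the animals behind a library nor the way growth was restricted, and the age tag is present only for replicates 1 and 2 while the titles give the age for all.

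Replication-dependent histone genes supply the core and linker histones that package newly made DNA in S phase. They lie in clusters, mostly lack introns, and make messages that end in a stem-loop in place of a poly(A) tail. Many H2A and H2B genes stand head to head and share one promoter region, and related copies within a cluster can be nearly identical in sequence. A gene was counted as having a gene-end peak where a peak lay at least in part within 1 kb of its annotated start or end. Since 61 of the 67 genes span less than 1 kb, this window takes in the whole gene and its promoter in nearly all cases, and the window of one gene can reach its neighbour.

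The lists held 10862 to 29501 peaks, with 10862 to 24195 in Ctrl and 23327 to 29501 in FGR libraries. Background coverage was 3.01 to 6.05 extended reads per base in Ctrl and 3.52 to 4.82 in FGR libraries. Ctrl replicates 1 and 2 stood apart, with median peak widths of 566 and 522 bp against 353 to 386 bp in the other 6 libraries, and with summits a median of 138 to 139 bp away from those of the other 6. FGR replicates 1 and 3 had 9.01% of their shared summits at the same base, and FGR replicates 2 and 4 had 7.48%, against 1.77% to 2.13% for the other pairs among FGR 1 to 4 and Ctrl 3 and 4. Replicates 1 and 3, and replicates 2 and 4, were therefore each averaged and counted as 1 sample for means and SDs (n = 2 pairs), and Ctrl libraries were paired in the same way although their displaced summits cannot show it. P-values over 8 libraries measure the spread between these libraries, which may be technical, and are too small if paired libraries share animals. Gene-end peaks were found at 5 to 11 of 12 microglia marker genes per library and at none of 6 neuronal markers in any library. Of the 18 markers of border macrophages, astrocytes, oligodendrocyte lineage, endothelial and mural cells, Flt1 had one in 1 Ctrl and 4 FGR libraries, Mbp in 2 and 2, Mrc1 and Aldh1l1 in 1 FGR library each, and the other 14 in none.

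The upstream sequences of the genes on which the results turn come first. The 250 bases before the annotated start are shown, 5′ to 3′ on the strand of the gene, from the RefSeq promoter table of build GRCm38.p6, for the gene with the highest within-list percentile of peak strength of each type that had an entry, and for genes with no peak in any library. Capitals mark exact matches, on either strand, to CCAAT, the box bound by NF-Y, and to TATAAA, a core promoter element. They also mark ATTTGCAT, the octamer bound by Oct-1, the H1 box with the letters AAACACA, and TTTCGCGC, an E2F-type site. The first is H1f2 (Hist1h1c, linker histone, chr13:23738557-23738806, plus strand), with a CCAAT box and an H1 box.
H1f2: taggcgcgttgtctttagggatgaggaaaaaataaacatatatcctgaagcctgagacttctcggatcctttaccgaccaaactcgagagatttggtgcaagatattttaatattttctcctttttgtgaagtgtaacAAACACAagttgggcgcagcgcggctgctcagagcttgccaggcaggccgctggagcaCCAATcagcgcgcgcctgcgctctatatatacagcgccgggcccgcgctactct
The second is H2ac6 (Hist1h2ac, core histone H2A, chr13:23683960-23684209, minus strand), with CCAAT boxes, an octamer and a TATA box.
H2ac6: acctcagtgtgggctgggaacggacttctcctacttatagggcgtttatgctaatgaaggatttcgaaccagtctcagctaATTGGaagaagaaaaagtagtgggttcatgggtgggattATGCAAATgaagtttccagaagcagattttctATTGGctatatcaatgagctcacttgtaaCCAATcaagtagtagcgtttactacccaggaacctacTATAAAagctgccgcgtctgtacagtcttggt
The third is H2bc12 (Hist1h2bk, core histone H2B, chr13:22035571-22035820, plus strand), which also holds the E2F-type site.
H2bc12: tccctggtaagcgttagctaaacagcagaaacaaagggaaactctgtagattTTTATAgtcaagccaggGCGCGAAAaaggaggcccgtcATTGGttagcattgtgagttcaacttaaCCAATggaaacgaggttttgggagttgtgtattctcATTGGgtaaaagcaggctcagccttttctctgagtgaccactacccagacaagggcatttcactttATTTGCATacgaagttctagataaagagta
The fourth is H3c13 (Hist2h3b, core histone H3, chr3:96268404-96268653, plus strand), which shares its peak with the H2B gene H2bc18. The summit of that peak lay 798 to 1149 bp past the H3c13 start, beyond the end of the gene. From the H2bc18 start it lay −248 to 103 bp away. A region that reaches the printed bases was called in 0 Ctrl libraries and 1 FGR library.
H3c13: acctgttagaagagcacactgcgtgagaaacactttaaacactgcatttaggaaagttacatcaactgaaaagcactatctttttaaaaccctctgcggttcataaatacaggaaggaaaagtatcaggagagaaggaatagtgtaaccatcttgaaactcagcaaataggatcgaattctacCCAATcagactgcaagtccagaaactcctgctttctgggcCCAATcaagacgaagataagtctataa
The fifth is H4c3 (Hist1h4c, core histone H4, chr13:23698459-23698708, minus strand).
H4c3: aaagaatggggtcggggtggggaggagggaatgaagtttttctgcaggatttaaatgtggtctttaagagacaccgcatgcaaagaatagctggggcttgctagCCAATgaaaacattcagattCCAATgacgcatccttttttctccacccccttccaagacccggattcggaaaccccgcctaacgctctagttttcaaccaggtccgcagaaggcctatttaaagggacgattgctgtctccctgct
The next is H1f6 (Hist1h1t, the linker histone of the testis, chr13:23695561-23695810, plus strand), which carries a CCAAT box and an H1 box like H1f2 but had no peak in any library.
H1f6: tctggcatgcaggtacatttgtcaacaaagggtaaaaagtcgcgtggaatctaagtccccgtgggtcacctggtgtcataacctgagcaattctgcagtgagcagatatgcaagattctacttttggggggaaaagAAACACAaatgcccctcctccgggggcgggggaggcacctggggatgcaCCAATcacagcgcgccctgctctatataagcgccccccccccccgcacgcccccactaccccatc
The last is H2bc23 (Hist1h2bq, chr13:21810200-21810449, minus strand), also without a peak in any library, whose 250 bases are identical to those of Hist1h2br (listed as H4bc24 in the table, chr13:21833493-21833742, plus strand).
H2bc23: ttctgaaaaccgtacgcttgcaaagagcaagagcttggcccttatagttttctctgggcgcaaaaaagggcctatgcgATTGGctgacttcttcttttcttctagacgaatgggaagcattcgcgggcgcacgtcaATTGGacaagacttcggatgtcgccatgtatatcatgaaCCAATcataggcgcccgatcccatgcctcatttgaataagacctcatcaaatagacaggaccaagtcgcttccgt

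These motifs were common in the group. Among the 63 promoter entries of 62 members, CCAAT was present in 52 (82.5%), against 35.4% of 21263 promoters of all genes. TATAAA was present in 46.0% against 11.6%, and the octamer in 22.2% against 1.58%. All 14 octamer matches lay in H2A and H2B genes (7 of 18 and 7 of 17). The H1 box was present in 14.3% against 5.46%, and 5 of 6 H1 entries held it. TTTCGCGC was present in 7 entries (11.1%), 3 of H2A and 4 of H2B genes, against 0.362%, and the other E2F letters searched, TTTGGCGC, were in no member window against 0.508% of all. CCAAT was present in every H1, H2A and H2B entry, in 8 of 10 H3 entries and in 3 of 12 H4 entries. The median GC content of the member windows was 44.8% against 55.6% of all, so that letters rich in A and T have more chance to occur there. A match is a run of letters and not a measured binding site. The windows of head-to-head pairs cover largely the same bases, so a match can be counted for both genes of a pair. Some other windows are copies of each other. The entries are therefore not independent, and the percentages count such matches more than once.

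Most histone genes carried accessible chromatin in these microglia. A gene-end peak was present in all 8 libraries at 29 of 67 members (43.3%), against a background of 31.9% of all protein-coding genes. It was absent from every library at 14 members (20.9%), against 42.2% of all genes, and 24 members had a peak in some libraries. Among 1515 other genes that also span less than 1 kb, 1.58% had a peak in all 8 libraries and 96.2% in none, while 26 of the 61 members of that length (42.6%) had one in all 8 and 12 (19.7%) in none. That comparison matches length alone, and the kinds of genes in it were not examined. The Hist2h cluster had 6 of 10 members with a peak in all libraries, the second Hist1h block 15 of 31, and the first Hist1h block 7 of 23. By type these were 10 of 18 H2B, 9 of 18 H2A, 5 of 12 H3, 2 of 6 H1 and 3 of 13 H4 genes. Neighbouring members can count the same peak. Counted as distinct regions of overlapping peaks, 18 of 49 were called in all 8 libraries, against 43.7% of the regions at the ends of all genes. Regions exist only where a peak was called, so this share leaves out genes without a peak and is not on the scale of the member percentages. The members differed from all genes most in how few had no peak.

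**Figure D1:**
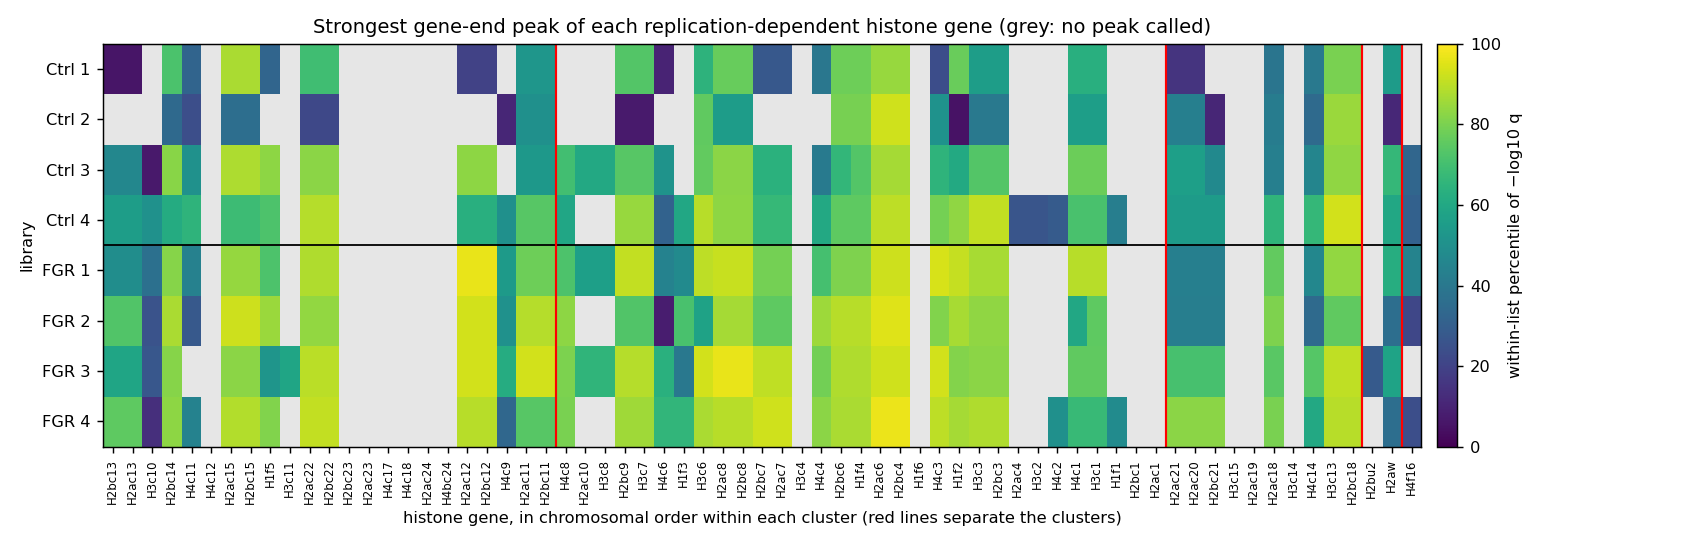
Within-list percentile of −log10 q of the strongest gene-end peak (colour, 0 to 100) for each histone gene (columns, in chromosomal order, clusters separated by red lines) in each of the 8 libraries (Ctrl above the black line, FGR below). Grey marks no called peak, and 14 columns are grey throughout, 6 of them consecutive in the first Hist1h block.

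The H2A and H2B genes held the strongest sites. The peak shared by H2ac6 (Hist1h2ac) and H2bc4 (Hist1h2bc) had the highest median percentile of all members, 92.6, where a percentile ranks a gene's strongest peak by −log10 q among all peaks of its own list and 0 stands for no peak. Its percentiles were 84.5, 92.9, 86.4 and 90.1 in Ctrl and 92.5, 95.1, 92.7 and 97.1 in FGR replicates 1 to 4. The authors' fold over local background at this peak was 4.89, 6.09, 5.80 and 5.29 in Ctrl and 6.83, 7.20, 6.29 and 7.48 in FGR libraries. It ranked high in every list, and the percentiles of the groups overlapped through Ctrl replicate 2.

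Among the linker histone genes, H1f4 (Hist1h1e) had percentiles of 77.9, 79.4, 73.3 and 75.3 in Ctrl and 80.6, 89.5, 88.0 and 87.4 in FGR libraries. This narrow range does not overlap between the groups, although the ranks of H1f4 in lists of equal length did. In every library but Ctrl 3 the peak was also that of the H2B gene H2bc6. There its summit lay 850 to 1320 bp past the H1f4 start, beyond the end of the gene. A region over the H1f4 start was called in 4 Ctrl and 4 FGR libraries. H1f2, which encodes H1.2, had percentiles of 77.1, 5.0, 60.8 and 83.4 in Ctrl and 91.3, 87.1, 81.4 and 86.6 in FGR libraries. Ctrl replicate 2 was far below the rest, and Ctrl 4 overlapped the FGR range. The H1f2 summit lay 189 bp past the start in Ctrl 1 and 65 bp past it in Ctrl 4. In the other libraries it lay 905 to 1059 bp past the start, beyond the end of the gene. H1f3 (Hist1h1d), which encodes H1.3, had a peak in Ctrl 4 alone among the controls, at percentile 60.1, and in all 4 FGR libraries, at 47.9, 71.4, 39.9 and 65.6. In FGR 1 the summit of the strongest H1f3 peak lay 1169 bp past the start, beyond the end of the gene. In Ctrl 4 and FGR 2 to 4 it lay 13 to 28 bp past the start. A region over the H1f3 start was called in 1 Ctrl and 4 FGR libraries. H1f3 was the only member with a peak in at least 3 more libraries of one group, against 1.21% of all genes for that direction and 0.174% for the other. Fisher's exact test of 1 against 4 libraries gave p = 0.143 for H1f3 before adjustment. At the low end, H1f1 (Hist1h1a) had a peak in 1 Ctrl and 1 FGR library.

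Among H3 genes of the Hist1h cluster, H3c3 (Hist1h3c) had the highest median percentile, 82.9, with 55.7, 40.3, 73.2 and 90.7 in Ctrl and 86.9, 83.3, 82.5 and 88.1 in FGR libraries. Ctrl 4 was the highest of the 8 and the other Ctrl libraries were the lowest 3. The H3c3 peak is also that of the H2B gene H2bc3. Its summit lay −847 to −1067 bp from the H3c3 start and −146 to −366 bp from the H2bc3 start. A region nearer to the H3c3 start was called in 1 Ctrl library and 0 FGR libraries. H3c11 had a peak in 1 FGR library and in no Ctrl library. Among H4 genes, H4c3 (Hist1h4c) ranked first, with percentiles of 23.8, 50.8, 65.0 and 79.2 in Ctrl and 93.8, 80.9, 93.2 and 89.9 in FGR libraries, so that every FGR value lay above every Ctrl value.

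Outside chromosome 13, H3c13 and H2bc18 of the Hist2h cluster shared a strong peak with a median percentile of 84.4, which was 79.8, 84.9, 83.2 and 93.1 in Ctrl and 83.8, 75.5, 90.2 and 89.2 in FGR libraries, with full overlap of the groups. H2ac18 (Hist2h2aa1) had percentiles of 38.8, 42.0, 43.3 and 65.5 in Ctrl and 76.1, 80.7, 74.2 and 79.9 in FGR libraries, which do not overlap. Percentiles depend on list length, and in lists of equal length its ranks did overlap, at 6302 to 9857 in 3 Ctrl libraries and 4514 to 7601 in FGR libraries. H2ac20, H2ac21 and H4c14 had peaks in all 8 libraries at middling strength, with median percentiles of 49.1 for H2ac21 and 46.0 for H4c14, and H2bc21 (Hist2h2be) had one in 7. H3c14, H3c15 and H2ac19 of the same cluster had none. In the Hist3h pair, H2aw (Hist3h2a) had a peak in all 8 libraries and H2bu2 (Hist3h2ba) in FGR 3 alone. H4f16 (Hist4h4) had a peak in 2 Ctrl and 3 FGR libraries, at percentiles of 21.4 to 44.8.

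Several genes often shared one peak. The 53 members with a peak in any library were served by 49 distinct regions, of which 26 touched 1 member, 20 touched 2 and 3 touched 3, and 18 regions were called in all 8 libraries, against 43.7% of the 13510 regions at the ends of all genes. Present in the 4 FGR lists and absent from the Ctrl lists was 1 region, against 0.363% of all, and the reverse held for 0, against 0.0814%. Members that share a region are not separate measurements. Of 10 head-to-head H2A and H2B pairs with a strand for both genes and 164 to 281 bp between their starts, 7 shared a peak in 7 or 8 libraries. The other 3 had none in any library. Neighbours such as H2ac6 and H2bc4 were not counted, since H2bc4 had no strand entry. The 7 were H2ac15/H2bc15, H2ac22/H2bc22, H2ac11/H2bc11 and H2ac8/H2bc8 in 8 libraries and H2bc13/H2ac13, H2ac12/H2bc12 and H2bc7/H2ac7 in 7. The summit lay between the starts in all 7 peaks of H2ac12/H2bc12 and of H2bc13/H2ac13, and in 5 of 7 peaks of H2bc7/H2ac7.

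Summits sat just upstream of the starts. Over the members with an annotated strand and a peak, the median position of the summit relative to the start was −125, −108, −94.5 and −60.5 bp in Ctrl and −65.5, −91.5, −68 and −77.5 bp in FGR replicates 1 to 4. Counted once per gene, 66.7% to 78.6% of summits were upstream of the start. By the same count, 76.2% to 88.6% were nearer to the start than to the end of the gene. A summit shared by neighbours enters once for each gene. A summit between the starts of a head-to-head pair is upstream of both, which raises the upstream share. Ctrl 1 and 2, whose summits are displaced across the genome, had the most distant medians.

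**Figure D2:**
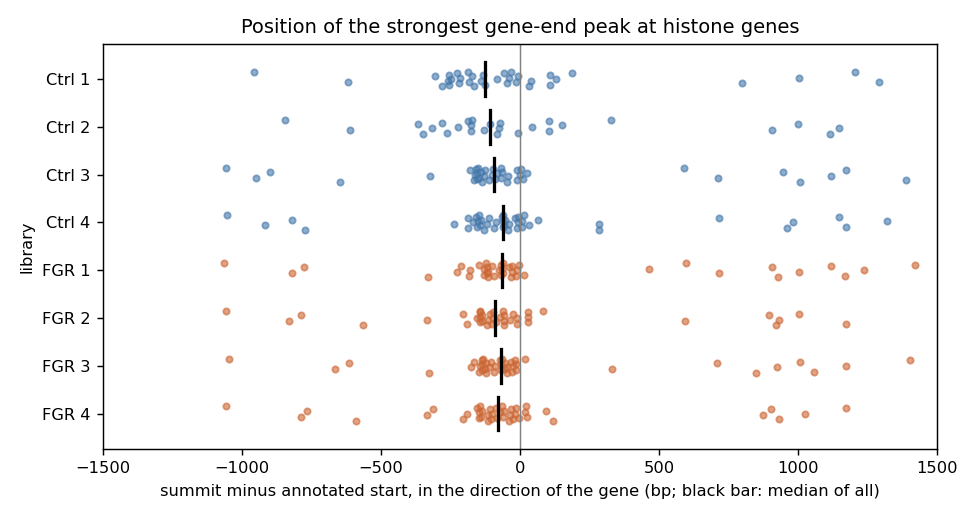
Distance from the annotated start to the summit of the strongest gene-end peak (bp, in the direction of the gene) for each member with a strand and a peak (points) in each library, with black bars for medians. The medians lie between −125 and −60.5 bp in all 8 libraries, and a smaller group of points near 1000 bp lies beyond the far end of short genes.

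The 14 members without any peak fell into a few kinds. In the first Hist1h block they were H4c12, H2bc23, H2ac23, H4c17, H4c18, H2ac24 and Hist1h2br, in the second block H3c4, H1f6, H2bc1 and H2ac1, and in the Hist2h cluster H3c14, H3c15 and H2ac19. H1f6, H2bc1 and H2ac1 encode the testis forms of H1, H2B and H2A. 10 of the 14 have upstream sequence that recurs in another member, as printed above for H2bc23. Of 62 members with a promoter entry, 12 shared a run of at least 50 identical bases with another member, a limit chosen after the values were seen, and 10 of these 12 had no peak in any library. H2bc23 and Hist1h2br were identical over all 250 bases, H4c17 and H4c18 shared 249 and were 99.2% identical, H2ac24 shared 233 with H2bc23, and H3c14 and H3c15 shared 231. The exceptions were H2ac18, with a peak in all 8 libraries and a run of 169 bases shared with H2ac19, and H4c11, with a peak in 7 and a run of 72 bases shared with H4c12. Of the 50 members without such a run, whose longest runs were 13 bases in the median and 40 at most, 4 had no peak (H3c4 and the testis genes) and 24 had one in all 8 libraries. Reads that map equally well to several copies may be dropped or placed at random by a mapping pipeline. Their handling was not given in the sources used here, and its part in the missing peaks was not tested. For these 10 genes the lack of a peak is a lack of a call and not a measurement of closed chromatin.

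**Figure D3:**
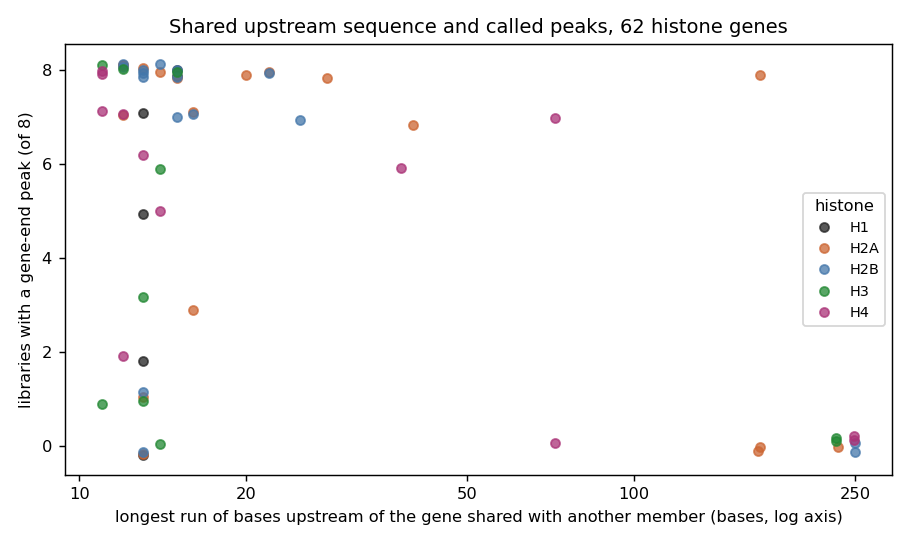
Number of libraries with a gene-end peak (0 to 8, points spread slightly in height) against the longest run of identical bases that the 250 upstream bases share with another member (log axis), for 62 members coloured by histone type. Of the 12 members at 72 bases or more, 10 lie at 0 libraries, 1 at 7 and 1 at 8.

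The number of histone genes with a peak differed little between the groups once the control libraries that stood apart were left out. Gene-end peaks were found at 39, 32, 45 and 49 members in Ctrl and at 47, 45, 47 and 47 in FGR replicates 1 to 4. As a percent of members, the mean of the Ctrl pairs was 61.6% ± 1.58 and that of the FGR pairs 69.4% ± 1.06 (SD, n = 2 pairs each), while the SD over single libraries was 11.1 in Ctrl and 1.49 in FGR. The difference of 7.84 percentage points compares with 4.01 over all genes. Without Ctrl 1 and 2, which had the fewest peaks, it was −0.75 points. More FGR than Ctrl libraries had the peak at 19 members and fewer at 3, with backgrounds of 16.5% and 5.5% of all genes, and 45 members were equal. No member had a peak in all 4 libraries of one group and none of the other, against 0.169% of all genes with FGR only and 0.0228% with Ctrl only. Fisher's exact test with Benjamini-Hochberg adjustment over 5685 genes called none of the 24 members tested, nor any gene (0% called); at an unadjusted p under 0.05 it gave 0 members and 42 genes (0.739%), with a smallest p of 0.0286 that 4 against 4 libraries can reach.

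Peaks around the genes gave no called difference either. A locus was taken as the gene with 20 kb on each side, and limma compared peaks per locus per 10000 peaks of the library over 8037 loci, 58 of them around members and overlapping each other. It called 0 member loci in either direction at an adjusted p under 0.05, with 1 of all loci higher (0.0124%) and 0 lower (0%). At an unadjusted p under 0.05, 0 member loci were higher and 3 lower, against 2.6% and 15.6% of all loci. The median log2 difference, FGR minus Ctrl, was −0.23 over member loci and −0.28 over all loci. The sign turned with the settings. Without division by list length the medians were 0.36 and 0.31, with lists cut to 10862 peaks 0.26 and 0.00, and at −log10 q of at least 5 with the division kept 0.04 and −0.22.

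Of the member loci with the smallest p in each direction, the H4c4 (Hist1h4d) locus held 4, 3, 5 and 6 peaks in Ctrl and 5, 5, 4 and 5 in FGR libraries. The counts overlap, and per 10000 peaks limma gave −0.49 ± 0.22 on the log2 scale (SE, adjusted p = 0.243). The H3c8 (Hist1h3g) locus held 5, 1, 7 and 7 peaks in Ctrl and 9, 6, 9 and 8 in FGR libraries, so that the groups overlap in range, and limma put the difference at 0.27 ± 0.24 on the log2 scale (SE, adjusted p = 0.480). On the same scale the H1f2 locus had −0.51 ± 0.24 (SE, limma, adjusted p = 0.243). The H4c3 locus had 0.22 ± 0.24 (SE, limma, adjusted p = 0.579).

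Over whole clusters, counted from the first to the last member with 20 kb on each side, the Hist1h span held 40, 22, 48 and 52 peaks in Ctrl and 55, 55, 59 and 66 in FGR libraries. The pair means were 40.5 ± 4.95 and 58.8 ± 2.47 (SD, n = 2 pairs), and every FGR library was above every Ctrl library. The difference of 18.25 peaks was 12.1 without Ctrl 2, the shortest list, and 8.75 without Ctrl 1 and 2. Per 10000 peaks of the list they were 21.9 ± 1.49 and 22.2 ± 3.01, which differ by less than the spread between pairs. The Hist2h span held 6 to 8 peaks in Ctrl and 7 to 10 in FGR libraries, or 4.06 ± 0.496 and 3.11 ± 0.0825 per 10000 peaks (SD, n = 2 pairs). By library these were 4.34, 5.52, 3.08 and 3.31 in Ctrl and 2.94, 3.43, 3.39 and 2.67 in FGR replicates 1 to 4. The groups overlap, and the highest values are those of Ctrl 1 and 2, the shortest lists. The Hist3h span held 2 to 4 and 4 to 6 peaks, and the Hist4h span 0 to 2 and 1 to 3.

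The groups differed in how high the histone peaks ranked within their lists. Each list was cut to its 10862 strongest peaks by the authors' −log10 q, the length of the shortest list, and the members with a gene-end peak near the top were counted. This measure was chosen after its values were seen, so it is described and not tested. Among the 5000 strongest peaks, gene-end peaks belonged to 16, 11, 14 and 14 members in Ctrl and to 22, 23, 20 and 29 in FGR replicates 1 to 4. The pair means were 13.8 ± 1.77 and 23.5 ± 3.54 (SD, n = 2 pairs), and the groups did not overlap. As distinct peaks the counts were 11, 7, 8 and 8 in Ctrl and 13, 15, 12 and 17 in FGR libraries. Among all protein-coding genes the order was the opposite, with 18.7% to 20.1% in Ctrl and 17.2% to 18% in FGR libraries.

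The separation held over part of the range of ranks. Among the 7500 strongest peaks there were 22, 23, 23 and 22 members in Ctrl and 29, 33, 30 and 35 in FGR libraries. Among the 2500 strongest there were 4, 6, 0 and 6 against 8, 8, 10 and 6, which meet at 6, and among all 10862 there were 28 to 38 against 33 to 40, which overlap. Without Ctrl 1 and 2 the mean count among the 5000 strongest was 14 in Ctrl and 23.5 in FGR libraries, and with replicates 3 and 4 alone it was 14 and 24.5. The median fold of member peaks was 3.77, 4.0, 4.37 and 3.72 in Ctrl and 4.51, 4.95, 4.44 and 4.66 in FGR libraries, while that of all peaks was 3.51 to 4.16 in Ctrl and 3.69 to 4.2 in FGR libraries.

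**Figure D4:**
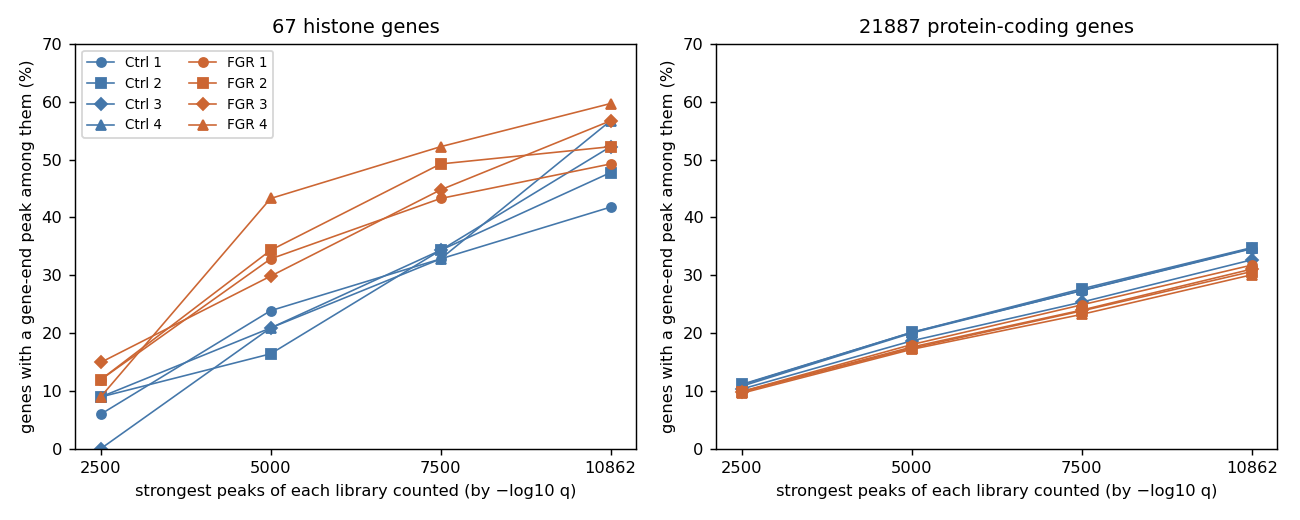
Percent of the 67 histone genes (left) and of all 21887 protein-coding genes (right) with a gene-end peak among the strongest 2500, 5000, 7500 and 10862 peaks of each library (lines, Ctrl blue and FGR orange). At 5000 peaks the FGR libraries lie above the Ctrl libraries for histone genes, 20 to 29 genes against 11 to 16, and below them for all genes.

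By type, the 5000 strongest peaks took in 8, 4, 7 and 6 H2B genes in Ctrl and 9, 9, 9 and 12 in FGR libraries. For H2A genes the counts were 4, 2, 5 and 3 against 5, 7, 6 and 8, which meet at 5. For H4 genes they were 0, 1, 0 and 0 against 2, 3, 1 and 2, which meet at 1. H1 genes, with 1 or 2 in Ctrl and 1 to 3 in FGR libraries, and H3 genes, with 1 to 4 and 1 to 5, overlapped. The second Hist1h block had 4 to 10 members there in Ctrl and 12 to 16 in FGR libraries. The first block had 0 to 8 against 6 to 10 and the Hist2h cluster 2 in each Ctrl and 1 to 5 in FGR libraries, both with overlap.

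Some promoters kept the groups apart in rank. At 8 of 67 members (11.9%) the strongest gene-end peak ranked higher in every FGR library than in every Ctrl library, where a peak outside the 10862 strongest took the lowest rank, against a background of 0.959% of all genes and 2.22% of the genes with a ranked peak in any library. The 8, of 45 members with a ranked peak, rest on 5 distinct peaks. They account for 4 of the difference of 9.75 members among the 5000 strongest peaks, and the other members for 5.75. At 1 member (1.49%) the order was the opposite, against 2.15% and 4.97%.

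The shared promoter of H2ac12 (Hist1h2ah) and H2bc12 (Hist1h2bk), printed above, had ranks of 3866 and 8959 in Ctrl 3 and 4, was not among the ranked peaks of Ctrl 1 and 2, and had ranks of 892, 1568, 2067 and 2809 in FGR libraries. Its fold was 3.24, 5.95 and 4.15 in Ctrl 1, 3 and 4, with no peak in Ctrl 2, and 8.83, 7.66, 7.49 and 6.84 in FGR libraries. The promoter of H2ac8 (Hist1h2ae) and H2bc8 (Hist1h2bg) was ranked in every list, at 3765, 4846, 3921 and 4081 in Ctrl and at 2240, 3144, 1013 and 2844 in FGR libraries, with folds of 4.25, 4.01, 5.26 and 4.47 against 5.98, 5.77, 6.52 and 5.62. Here the separation does not rest on absent peaks. The promoter of H2bc7 (Hist1h2bf) and H2ac7 (Hist1h2ad) had ranks of 8239 and 8018 in Ctrl 3 and 4 and of 5664, 5832, 2822 and 1865 in FGR libraries, and was unranked in Ctrl 1 and 2.

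Both single-gene promoters were of H4 genes. H4c3 (Hist1h4c) had ranks of 5346, 7948 and 5044 in Ctrl 2, 3 and 4, none in Ctrl 1, and 1677, 4451, 2011 and 2647 in FGR libraries. H4c4 (Hist1h4d) had ranks of 9722 and 9555 in Ctrl 1 and 4, none in Ctrl 2 and 3, and 7993, 3430, 6271 and 4579 in FGR libraries. The H2A gene H2aw (Hist3h2a) went the other way, with ranks of 7279, 9655, 7585 and 9698 in Ctrl, 10274 in FGR 1 and none in the other FGR lists, although it had a peak in all 8 uncut lists. Ranked by fold in place of −log10 q, 7 members were higher (background 0.95%), all of the above but H4c3, and 2 lower (1.97%). Several of these promoters were absent or weak in Ctrl 1 and 2, whose peaks are wider than those of other libraries, and the part of that in the result was not tested beyond leaving both out, when 13 members were higher (background 2.33%) and 1 lower (5.1%). With replicates 3 and 4 alone, 18 were higher (4.57%) and 3 lower (8.67%).

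**Figure D5:**
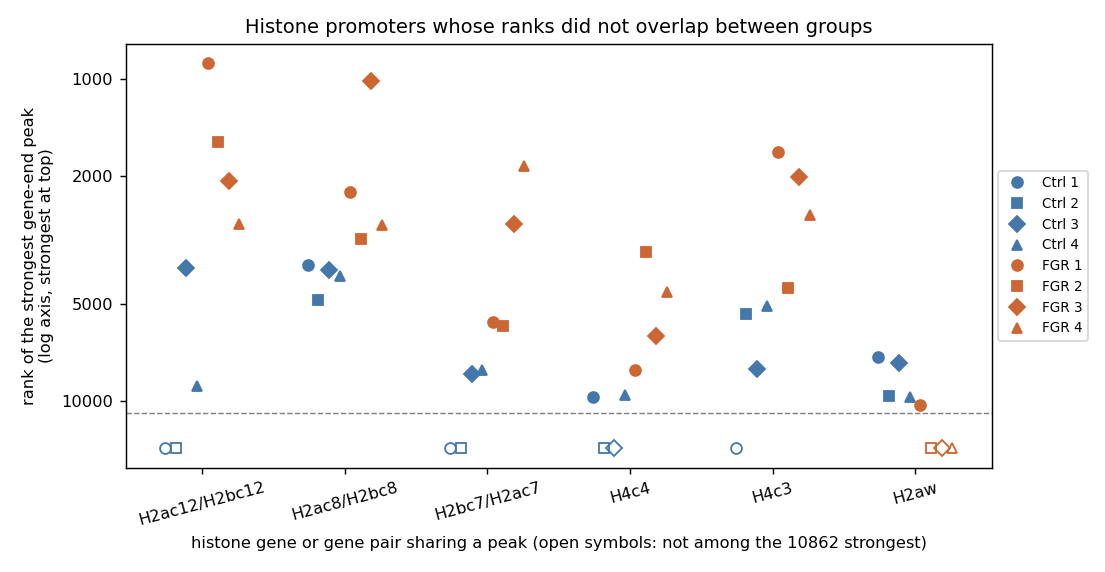
Rank of the strongest gene-end peak within the 10862 strongest peaks of each library (log axis, strongest at the top) at the 5 histone promoters whose ranks were higher in every FGR library (orange) than in every Ctrl library (blue), and at H2aw, where they were lower. Open symbols under the dashed line mark libraries without a ranked peak, such as Ctrl 1 and 2 at H2ac12/H2bc12.

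The counts for other genes of the histone pathway are set beside these, and the differences between lists were not tested. Among the 5000 strongest peaks, the 23 genes of histone gene transcription and message end processing, such as Npat, Slbp and the NF-Y subunits, had 15, 16, 15 and 12 members in Ctrl and 12, 13, 14 and 11 in FGR libraries. The 18 histone chaperones and assembly factors had 11, 11, 12 and 11 against 10, 9, 11 and 12. The 11 replication-independent histone genes, which are expressed outside S phase, had 4, 3, 3 and 3 against 5, 5, 4 and 4. At this cut their FGR counts were also at or above their Ctrl counts, and these meet at 4. The 8 genes of proliferating cells, such as Mki67 and Top2a, had 3 in each Ctrl and 2 or 3 in FGR libraries, and the 12 microglia markers had 2, 5, 3 and 2 against 4, 4, 5 and 4. Among the 7500 strongest, the microglia markers had 3, 5, 6 and 3 in Ctrl and 7, 6, 7 and 6 in FGR libraries, which meet at 6. The transcription and end processing genes had 20, 22, 16 and 19 against 15, 14, 15 and 13, the opposite order, and the replication-independent histones 4 to 7 against 5 to 7. Among all 10862 the replication-independent histones had 8, 7, 7 and 7 in Ctrl and 5, 6, 7 and 5 in FGR libraries. There the order was turned, and the groups meet at 7.

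These genes mostly had gene-end peaks in every library. This was so for 20 of 23 transcription and end processing genes, 15 of 18 chaperones, 7 of 11 replication-independent histones, 7 of 8 proliferation genes and 5 of 12 microglia markers. Among the pathway genes, Atrx, a chromatin remodeler that deposits histone H3.3, was the only one to differ by 3 libraries, with a peak in 0 Ctrl and 3 FGR libraries (Fisher's exact test, p = 0.143 before adjustment). None of these genes passed the test adjusted over all genes.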

How the data were processed

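Peaks were called per sample, since every library has a list to itself. The submitters' processing notes list the build mm10 and the tools MACS2 2.2.7.1, Bowtie2 2.4.5, DiffBind 3.12.0, Trim Galore 0.6.5 and SAMtools 1.3.1. Their roles and settings, and the treatment of multi-mapping reads, duplicates and read ends, were not given in the sources used here. The deposited lists give a score, which was not used, a fold (a ratio of the summit pileup to local background) and −log10 p and −log10 q values, all the authors' own for each peak. They were used only to describe, rank or filter peaks within a list. Read totals were not used here. Background coverage was worked back from −log10 p and fold as deposited, with 100% of peaks within 0.005 of a whole-number pileup.

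Genes came from a RefSeq table of GRCm38.p6, which has mm10 coordinates, and all 67 members were found in it. Strand and upstream bases came from a RefSeq promoter table with entries for 62 members; H2bc21, H4c14, H3c7, H2bc4 and H3c1 have none. The members and lists were chosen with earlier results of these data known, so no p-value is given for a count over the members. Fisher's exact test ran over genes with a peak in 1 to 7 libraries and limma 3.58.1 (in R 4.3.3, trend on) took the log2 of peaks plus 0.5 per 10000 peaks at loci where the mean reached 2 peaks, both with Benjamini-Hochberg adjustment and a threshold of 0.05. Scripts (Python 3.11.15, pandas 2.3.3, numpy 2.4.6, Biopython 1.88, scipy 1.17.1, matplotlib 3.10.9) were tested on simulated data.

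Named genes are all members outside the Hist1h cluster, members that differ by at least 3 libraries, the highest and lowest of each type in the Hist1h cluster, members without a peak (all 14 are named), and the 2 loci with the smallest p in each direction; genes named for their ranks were chosen after their values were seen. Alternatives were stricter −log10 q, lists of equal length, other windows and overlaps, leaving out libraries, and the replicate number as a block. The planned protein sequences were not used here.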

Additional observations from a re-analysis of the deposited data

Results flagged for a closer look

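In several groups of 4 libraries, 1 library lay far from the other three relative to the spread of the group. This happens by chance in about 1 in 20 groups, and most of the values below are counts that take only a pair of distinct values, where a single library must stand out.

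Over all members, FGR 2 had 45 genes with a gene-end peak against 47 in each other FGR library. For H2B genes FGR 3 had 15 against 14, for H1 genes FGR 4 had 5 against 4, in the Hist1h cluster FGR 2 had 36 against 38, and in the second Hist1h block FGR 2 had 21 against 23. In the Hist2h cluster Ctrl 1 had 6 against 7. In the Hist3h pair FGR 3 had 2 against 1, through H2bu2, and at the Hist4h gene FGR 3 had 0 against 1.

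The values for H1f3 and H2ac18 are on a finer scale. The H1f3 percentile was 60.1 in Ctrl 4 and 0 in the other Ctrl libraries, which had no peak. The H2ac18 percentile was 65.5 in Ctrl 4 against 38.8 to 43.3 in the other Ctrl libraries. Ctrl 4 had the highest background coverage of the 8 libraries, 6.05 extended reads per base; its part in both values was not tested.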

How the results depend on the processing

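No member locus passed limma's test under any of 19 alternatives. Fisher's exact test could not pass adjustment at these group sizes, so its lack of calls says nothing of stability. The difference in members with a gene-end peak was 13.4 points at −log10 q of at least 5 (all genes 3.73) and 4.85 with equal-length lists (all genes −3.29). With Ctrl 1 and 2 left out as well, these were 0.373 and 0 points. In the uncut lists the difference was 0 with replicates 3 and 4 alone, −0.746 without Ctrl 1 and 2, and 3.23 to 11.7 leaving out each library. Members with a peak in all libraries were 19 at −log10 q of at least 5 (28.4%, all genes 24.2%). Leaving out each library they were 29 to 38 (43.3% to 56.7%, all genes 31.9% to 36.5%). Members with a peak in every FGR and no Ctrl library were 0 to 1 leaving out each library; the 1 is H1f3 without Ctrl 4. The H1f3 difference in the share of libraries, 0.75, was 0.25 with equal-length lists and 0.5 without Ctrl 1 and 2.

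For spans, FGR minus Ctrl with equal-length lists was 3.25 peaks for Hist1h, −0.25 for Hist2h, −0.5 for Hist3h and −0.25 for Hist4h. Per 10000 peaks it was 0.306 for Hist1h, −0.958 for Hist2h and 0.290 for Hist4h. It was 0 for Hist2h at −log10 q of at least 5 and −0.5 for Hist4h with replicates 3 and 4 alone. The cause was not tested.

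The difference in members among the 5000 strongest peaks, 9.75, was 5.75 as distinct peaks, 10 ranked by fold, and 7.92 to 10.9 leaving out each library. Members ranked higher in every FGR library were 8 to 12 leaving out each library (all genes 1.32% to 1.73%), 13 without Ctrl 1 and 2 (2.33%) and 18 with replicates 3 and 4 alone (4.57%). Those ranked lower were 2 by fold (1.97%), 1 to 2 leaving out each library (2.77% to 4.09%) and 3 with replicates 3 and 4 alone (8.67%).

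The groups share replicate numbers, but same-numbered libraries showed little deviation in common (correlations −0.0176, 0.0977, 0.0672 and 0.0291). Libraries of unlike number had correlations from −0.1205 to 0.1084. The check thus does not show that the numbers pair the libraries, and correlations this weak cannot exclude it. With the replicate block, limma called 54 loci higher and 87 lower against 1 and 0 without it, and 0 member loci either way. Peak lists hold called peaks alone, so accessibility under the threshold was not detectable at this depth.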

Other observations

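The genes that lie among the histone genes were mostly without peaks. Of 50 other protein-coding genes inside the cluster spans, 42 had a gene-end peak in no library and 2 in all 8, and 36 of the 42 are Vmn1r genes, which encode pheromone receptors of the vomeronasal organ. All 36 lie in the 1.49 Mb between the Hist1h blocks. The 2 with a peak in every library are zinc finger genes, Zfp184 with a median percentile of 62.6 and Zfp322a with 79.8, the highest of the 50. Abt1 and Hfe, the gene of an iron regulator, each had a peak in 2 Ctrl and 4 FGR libraries, Btn2a2 in 3 and 3, and Pom121l2, Btn1a1 and Slc17a1 in 1 FGR library each. Btn1a1 is the lowest by symbol among those with a median of 0 and some peak.

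One region at a histone gene was present in the 4 FGR lists and absent from the Ctrl lists, and it was named after its values were seen. It is chr13:23762291-23762589 (mm10), 299 bp, within 1 kb of an end of H3c1 (Hist1h3a). Its percentiles were 63.9, 75.2, 69.3 and 55.6 in FGR replicates 1 to 4. H3c1 also had a peak in all 8 libraries through a second region, chr13:23761009-23761883, with percentiles of 63.0, 56.0, 77.7 and 71.2 in Ctrl and 89.2, 59.8, 75.8 and 67.4 in FGR libraries, which overlap.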
